A study of Mus musculus with 12 samples.

Results

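Cell division genes were followed here in young mouse brain tissue of 3 strains. The set holds 42 named genes of DNA replication, the cyclins and mitosis, found among the array's probes by the current or an older gene symbol of the platform. Of these, 41 had at least 1 probe above the brightness threshold, out of 21643 genes measured, and together they had 61 probes. The cyclin B1 gene Ccnb1 was not analysed here. By chromosome, 3 of the 41 lie on chromosome 1 (Mcm3, Mcm6 and Cenpf), 7 on chromosome 2 (Pcna, Bub1, Bub1b, Aurka, Tpx2, Ube2c and Nusap1) and 31 elsewhere.

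The groups were 4 C57BL/6J mice (Bl6), 4 mice of strain CSS1 and 4 of strain CSS2, all at age P14, each hybridised on its own array of 2 colours. Every array carried, in the other colour, a pool of Bl6 RNA, and 2 mice of each strain had the dyes swapped. The names CSS1 and CSS2 are read here as chromosome substitution strains, whose chromosome 1 or chromosome 2 comes from another strain on a Bl6 background. The donor strain is not named in the labels, and the labels call the tissue hippocampus where the design text says brain. The title of the study names a search for a gene of susceptibility to febrile seizures. Per mouse, a value is the log2 ratio of that mouse over the Bl6 pool with the fitted dye effect removed, so that 0 is the level of the pool.

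A dividing cell copies its DNA in S phase, when the MCM helicase opens the double helix and ribonucleotide reductase supplies the building blocks. Cyclins then switch cyclin-dependent kinases on in turn, and in mitosis the spindle, the kinetochores and their checkpoint separate the chromosomes before the anaphase-promoting complex ends the process. Neurons do not divide once formed, and in the young hippocampus dividing cells include neural progenitors of the dentate gyrus and precursors of glia. In tissue RNA, fewer dividing cells and less RNA per dividing cell cannot be told apart.

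All 10 hippocampal neuron markers looked up, such as Prox1 of dentate granule cells and Wfs1 of CA1 pyramidal cells, were above background on all 12 arrays. So were 20083 of all 21643 genes, so being above background does not tell which tissue was used. The median signal of the mouse channel ranged from 188 to 408 across arrays, and 89.6% to 99.9% of gene probes were above background, lowest in CSS2 mouse 1. Of the 41 cell division genes, 40 were above background on all 12 arrays, and Cenpf was so on all Bl6 and CSS1 arrays but on only 2 of 4 CSS2 arrays.

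In CSS1 the cell division genes were lower than in Bl6 across nearly the whole set. In limma, 11 of 41 fell at an adjusted p under 0.05, against 0.859% of all genes, and 39 of 41 (95.1%) had a negative difference, against 51.3% of all genes. None rose, against 1.17% of all genes, and none was higher at an unadjusted p under 0.05, where 28 were lower. Over all genes, 6.88% were higher and 5.96% lower at that threshold. Of the 20 further probes of these genes 17 were negative and 5 passed as lower, against 0.826% of all kept probes. The median difference was -0.16 on the log2 scale, beside -0.002 over all genes. In 26 of 41 genes all 4 CSS1 mice were below all 4 Bl6 mice, which held for 4.14% of all genes. The genes that fell were Mcm2, Mcm3 and Mcm6 of the replicative helicase, Ccna2, Mki67 and Top2a, Bub1, Bub1b and Ube2c, and Birc5 and Prc1.

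The genes that fell lay on several chromosomes. Off chromosomes 1 and 2, 6 of 31 genes fell (Ccna2, Mcm2, Top2a, Birc5, Mki67 and Prc1), against 0.859% of all genes on any chromosome. There, 30 of 31 differences were negative, against 51.3% of all genes, and the median was -0.14. On chromosome 1, to which the name CSS1 refers, Mcm3 and Mcm6 fell, where 4.24% of the chromosome's genes were called lower, and Cenpf differed by 0.002. On chromosome 2, for which CSS1 is not named, all 7 differences were negative with a median of -0.18, and Bub1, Bub1b and Ube2c fell, against 0.362% of that chromosome's genes. For Mcm3 and Mcm6 in CSS1 and the chromosome 2 genes in CSS2, a sequence difference under the probe and a difference in RNA cannot be told apart with these arrays.

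Per mouse, the median over the 41 genes was 0.07, -0.01, -0.03 and 0.04 in Bl6 mice 2, 5, 8 and 11. It was -0.14, -0.13, -0.16 and -0.15 in CSS1 mice 3, 6, 9 and 12, and -0.04, -0.04, 0.004 and -0.05 in CSS2 mice 1, 4, 7 and 10. Every CSS1 mouse was thus below every mouse of the other strains, while the CSS2 and Bl6 mice overlapped. The CSS1 difference was present in both dye orientations, with a median of -0.16 over arrays with the mouse in Cy5 and -0.18 with the mouse in Cy3, and all 11 genes that fell were negative in both. In the authors' deposited normalized values, 40 of 41 differences of CSS1 from Bl6 were negative.

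**Figure D1:**
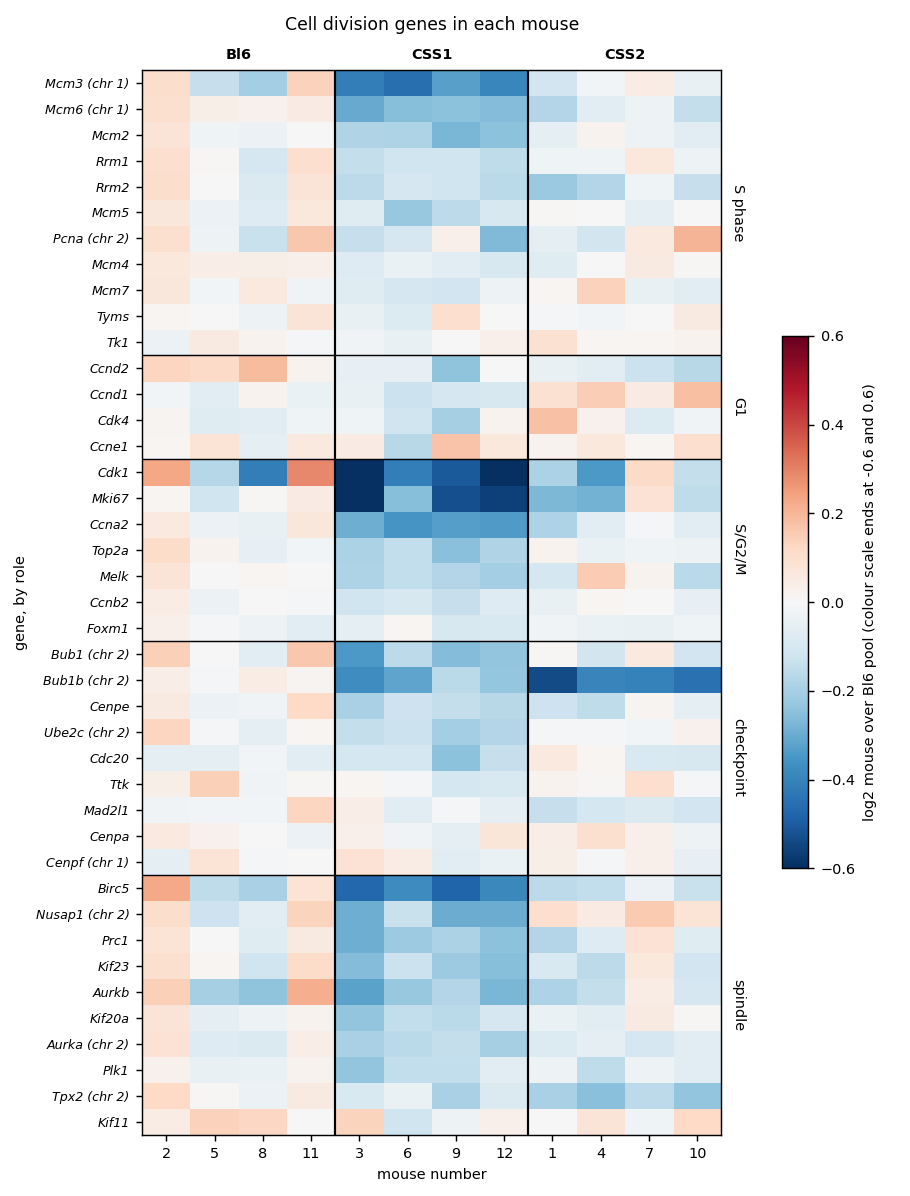
Colour shows the log2 ratio of each mouse (columns, by strain) over the Bl6 pool for each of the 41 genes (rows, by role, chromosome 1 and 2 genes marked), with the colour scale ending at -0.6 and 0.6. The CSS1 columns are blue in most rows, Bub1b and Tpx2 are blue in CSS2 as well, and the Bl6 columns of mice 5 and 8 are paler or bluer than those of mice 2 and 11 in rows such as Cdk1 and Aurkb.

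Many cell division promoters are known to carry short elements for a small set of factors: CCAAT boxes, the cell cycle homology region (CHR) read by the DREAM and MuvB complexes in G2 and mitosis genes, and E2F sites in S phase genes. RefSeq promoter windows of build GRCm38.p6, from 250 bases before to 50 bases after the gene's start, were found for 34 of the 42 genes. The windows were searched on both strands for the CHR forms TTTGAA and TTCGAA, for the CCAAT box, and for the E2F forms TTCCCGC, then TTGGCGC, then TTCGCGC. E2F letters can overlap CCAAT letters and each other. CHR letters stood in 52.9% of the 34 windows and in 21.7% of the 27025 genes with a window, CCAAT letters in 76.5% and 41.1%, and E2F letters in 23.5% and 9.2%. CHR and CCAAT letters occurred together in 52.9% of the cell division windows and in 9.65% of all. By role, E2F letters were in 5 of 10 S phase windows and in 0 of 9 checkpoint and kinetochore windows, where CHR letters were in 7 of 9. Of the 10 genes that fell in CSS1 and have a window, 7 had CHR letters, 9 CCAAT letters and 3 E2F letters. Of the 24 other genes with a window, the counts were 11, 17 and 5. These 24 include Ccnb1, which was not measured and so could not be called, and whose window holds CCAAT and E2F letters but no CHR letters. A match of letters is a description and not a binding site.

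The 250 bases before the start are shown for 6 genes that fell in CSS1, because they show both kinds of layout. They are Mcm6 (chr1:128359706-128359955, minus strand), Mcm3 (chr1:20820313-20820562, minus), Mki67 (chr7:135716380-135716629, minus), Top2a (chr11:99024190-99024439, minus), Ube2c (chr2:164769679-164769928, plus) and Bub1b (chr2:118597961-118598210, plus). Each is written from 5′ to 3′ on the gene's strand, and capitals mark the searched letters on either strand, with overlapping matches run together.
Mcm6: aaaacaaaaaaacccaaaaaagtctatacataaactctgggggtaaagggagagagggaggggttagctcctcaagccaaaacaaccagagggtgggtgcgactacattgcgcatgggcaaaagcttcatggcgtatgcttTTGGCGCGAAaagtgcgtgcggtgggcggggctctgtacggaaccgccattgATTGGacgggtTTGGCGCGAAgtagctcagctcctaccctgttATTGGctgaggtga
Mcm3: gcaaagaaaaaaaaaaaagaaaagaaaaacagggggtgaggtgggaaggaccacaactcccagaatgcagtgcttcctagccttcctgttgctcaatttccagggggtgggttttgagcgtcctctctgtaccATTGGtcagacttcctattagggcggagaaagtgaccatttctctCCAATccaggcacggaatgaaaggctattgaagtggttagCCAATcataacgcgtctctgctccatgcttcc
Mki67: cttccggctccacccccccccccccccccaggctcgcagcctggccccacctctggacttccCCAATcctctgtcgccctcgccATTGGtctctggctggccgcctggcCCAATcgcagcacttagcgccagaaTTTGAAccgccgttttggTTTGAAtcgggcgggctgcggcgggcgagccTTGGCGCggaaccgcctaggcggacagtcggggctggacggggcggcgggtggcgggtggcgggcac
Top2a: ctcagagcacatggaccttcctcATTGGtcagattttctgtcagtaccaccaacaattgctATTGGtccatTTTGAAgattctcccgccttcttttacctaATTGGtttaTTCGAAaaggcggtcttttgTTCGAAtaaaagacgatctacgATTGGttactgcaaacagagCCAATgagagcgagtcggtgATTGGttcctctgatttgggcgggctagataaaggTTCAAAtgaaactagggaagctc
Ube2c: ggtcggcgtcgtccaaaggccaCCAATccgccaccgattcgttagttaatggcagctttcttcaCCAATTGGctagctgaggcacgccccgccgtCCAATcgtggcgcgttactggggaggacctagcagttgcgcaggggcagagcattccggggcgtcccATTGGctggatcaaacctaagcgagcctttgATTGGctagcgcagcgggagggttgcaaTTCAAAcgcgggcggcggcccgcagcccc
Bub1b: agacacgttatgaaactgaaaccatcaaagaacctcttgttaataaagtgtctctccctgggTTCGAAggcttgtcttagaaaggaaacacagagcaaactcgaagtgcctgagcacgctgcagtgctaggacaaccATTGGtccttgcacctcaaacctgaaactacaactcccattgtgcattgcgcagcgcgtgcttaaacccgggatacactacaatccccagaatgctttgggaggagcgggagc
In Mcm6, E2F letters stand in 2 clusters beside 2 CCAAT matches, and no CHR letters were found. A further E2F match of Mcm6 lies after the start, outside the stretch shown. In Mcm3 the CCAAT letters lie in this stretch, and its E2F letters lie after the start, outside it. Mki67 holds CHR, CCAAT and E2F letters, with its 2 CHR matches next to each other. Top2a has 4 CHR and 6 CCAAT matches, Ube2c has 1 and 6, and Bub1b has 1 CHR and 1 CCAAT match here and another CHR match after its start. Any of these letters stood in the windows of 26 of the 34 genes (76.5%, against 57.4% of all genes with a window). The others, with none, were Birc5, which also fell in CSS1, and Nusap1, Ccne1, Cdk4, Mad2l1, Melk, Tk1 and Tyms.

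The S phase genes held 11 of the set: the helicase subunits Mcm2 to Mcm7, the sliding clamp Pcna, the ribonucleotide reductase subunits Rrm1 and Rrm2, and the thymidylate genes Tyms and Tk1. All 11 differences of CSS1 from Bl6 were negative with a median of -0.14, and 3 fell, against 0.859% of all genes. Mcm6 stood at 0.09, 0.04, 0.03 and 0.05 in Bl6 mice 2, 5, 8 and 11, at -0.30, -0.26, -0.25 and -0.26 in CSS1 mice 3, 6, 9 and 12, and at -0.18, -0.06, -0.03 and -0.14 in CSS2 mice 1, 4, 7 and 10. The 3 strains did not overlap, with CSS1 lowest and CSS2 between. In limma, Mcm6 fell by 0.32 ± 0.04 (SE) in CSS1 against Bl6 (adjusted p = 0.00196), while CSS2 differed from Bl6 by -0.16 (adjusted p = 0.104) and CSS1 from CSS2 by -0.16 (adjusted p = 0.0866). The call against Bl6 held with each of the 12 mice left out, but median centring in place of loess ended it (adjusted p = 0.122).

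Mcm3, on chromosome 1, was 0.11, -0.14, -0.20 and 0.14 in the Bl6 mice, -0.41, -0.45, -0.32 and -0.39 in CSS1, and -0.12, -0.01, 0.04 and -0.05 in CSS2. The CSS1 mice lay below all others, but Bl6 mice 5 and 8 were well below mice 2 and 11. The difference of CSS1 was -0.37 ± 0.07 (SE) from Bl6 (adjusted p = 0.0295) and -0.36 from CSS2 (adjusted p = 0.0494), both from limma. The other Mcm3 probe gave -0.32 (adjusted p = 0.0175) and -0.30 (adjusted p = 0.0278). Mcm3 missed the threshold against Bl6 without any 1 of Bl6 mice 2 and 11 or the 4 CSS1 mice, and against CSS2 without Bl6 mouse 5 or any CSS1 or CSS2 mouse, or with a block of 3 consecutive mouse numbers, 1 of each strain (adjusted p = 0.069).

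Mcm2, on chromosome 6, was 0.08, -0.03, -0.03 and 0.00 in Bl6, -0.18, -0.19, -0.27 and -0.25 in CSS1, and -0.06, 0.02, -0.03 and -0.06 in CSS2. CSS1 again lay below both other strains, which overlapped. Mcm2 fell by 0.23 ± 0.04 (SE) in CSS1 against Bl6 (adjusted p = 0.0135, and 0.0529 without Bl6 mouse 2) and by 0.19 against CSS2 (adjusted p = 0.0451). The latter call held in only 1 of the 12 fits that left out a mouse, the fit without Bl6 mouse 2.

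The other helicase subunits moved less. Mcm4, Mcm5 and Mcm7 differed by -0.11, -0.14 and -0.10 in CSS1 and by -0.05, -0.01 and -0.01 in CSS2, none past the threshold, and Mcm4 and Mcm7 of CSS1 did not overlap Bl6. Rrm1 and Rrm2 each differed by -0.16 in CSS1 without overlap (adjusted p = 0.138 and 0.204), and Rrm2 by as much in CSS2 (-0.16, adjusted p = 0.259). Pcna, on chromosome 2, was 0.09, -0.03, -0.13 and 0.16 in Bl6, -0.14, -0.10, 0.03 and -0.26 in CSS1, and -0.05, -0.11, 0.06 and 0.21 in CSS2. All 3 strains overlapped for Pcna, with a CSS1 difference of -0.14 (95% interval -0.33 to 0.05). Tyms and Tk1 differed by -0.02 each at their brightest probe, and the other Tyms probe by -0.13 (adjusted p = 0.193). A dimmer Tk1 probe, however, was -0.29 in CSS1 against Bl6 (adjusted p = 0.0307), so the probes of Tk1 disagree, and the dimmest Tk1 probe gave -0.02.

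The G1 genes, cyclins Ccnd1, Ccnd2 and Ccne1 and the kinase Cdk4 that carry cells toward S phase, had no call against Bl6 in limma. Their median difference in CSS1 was -0.06, and 1 of 4 was lower at an unadjusted p under 0.05, against 5.96% of all genes. Cyclin D1, Ccnd1, was -0.02, -0.06, 0.02 and -0.04 in Bl6, -0.05, -0.13, -0.10 and -0.10 in CSS1, and 0.09, 0.15, 0.05 and 0.18 in CSS2. It was the only one of the 41 with all CSS2 mice above all Bl6 mice, by 0.14 ± 0.04 (SE, adjusted p = 0.148). Between the substitution strains it fell by 0.21 ± 0.04 (SE) in CSS1 (adjusted p = 0.0204). That call was lost without CSS1 mouse 6, 9 or 12 or CSS2 mouse 4 or 10.

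Cyclin D2, Ccnd2, was 0.13, 0.11, 0.19 and 0.02 in Bl6, -0.05, -0.05, -0.24 and 0.00 in CSS1, and -0.04, -0.07, -0.13 and -0.17 in CSS2. Both substitution strains were below Bl6 without overlap, by -0.20 (adjusted p = 0.137) and -0.22 (adjusted p = 0.147), neither past the threshold. Cdk4, over 4 probes, differed by -0.03 to -0.07 in CSS1 and by 0.06 to 0.10 in CSS2. Ccne1 differed by 0.004 in CSS1 (95% interval -0.14 to 0.14) and by 0.03 in CSS2.

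The S, G2 and M group holds cyclins Ccna2 and Ccnb2, the mitotic kinase Cdk1, the factor Foxm1 that switches on G2 genes, the kinase Melk, topoisomerase Top2a and the proliferation marker Mki67. Its 7 measured genes were all lower in CSS1, with a median of -0.21, and 3 fell, against 0.859% of all genes. Ccna2 was 0.06, -0.04, -0.05 and 0.07 in Bl6, -0.29, -0.35, -0.33 and -0.34 in CSS1, and -0.18, -0.07, -0.01 and -0.07 in CSS2. The CSS1 mice were close together and below every other mouse. Ccna2 fell by 0.34 ± 0.04 (SE) against Bl6 (adjusted p = 0.00315), a 1.27-fold lower level, and this call held with each of the 12 mice left out and under all 10 other settings tried. Against CSS2 it was -0.25 (adjusted p = 0.0192), a call that held in 6 of the 12 fits that left out a mouse. It was lost without CSS1 mouse 6, 9 or 12 or CSS2 mouse 4, 7 or 10.

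Mki67, which marks cycling cells, was 0.01, -0.12, 0.01 and 0.05 in Bl6, -0.63, -0.26, -0.53 and -0.56 in CSS1, and -0.27, -0.28, 0.08 and -0.15 in CSS2. The highest CSS1 mouse, mouse 6, overlapped the CSS2 mice but not Bl6. Against Bl6 the CSS1 level was 1.40-fold lower, at -0.48 ± 0.09 (SE, adjusted p = 0.0272), and the other Mki67 probe gave -0.53 (adjusted p = 0.0286). CSS2 differed from Bl6 by -0.14 (95% interval -0.35 to 0.06), and CSS1 from CSS2 by -0.34 (adjusted p = 0.202). The call against Bl6 depended on the mice, since it was lost in 7 of the 12 fits that left out a mouse (each Bl6 mouse and CSS1 mice 3, 9 and 12).

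Top2a, which untangles replicated DNA, was 0.11, 0.02, -0.05 and -0.01 in Bl6, -0.19, -0.15, -0.25 and -0.18 in CSS1, and 0.02, -0.04, -0.03 and -0.03 in CSS2. CSS1 did not overlap either other strain. Top2a fell by 0.21 ± 0.04 (SE) against Bl6 (adjusted p = 0.0228, a call that leaving out Bl6 mouse 2, Bl6 mouse 5, CSS1 mouse 3 or CSS1 mouse 9 ended) and was -0.17 against CSS2 (adjusted p = 0.0858).

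Cdk1 had the largest difference of all 41 genes and no call. It was 0.23, -0.17, -0.42 and 0.29 in Bl6, -0.76, -0.41, -0.51 and -0.74 in CSS1, and -0.19, -0.34, 0.12 and -0.14 in CSS2. The Bl6 mice spread more (SD 0.34) than for any other cell division gene, and Bl6 mouse 8 overlapped CSS1. The CSS1 difference was -0.59 ± 0.16 (SE, adjusted p = 0.108) at the brightest probe and -0.51 at the next, while the dimmest probe gave 0.07. Melk (-0.20, adjusted p = 0.144) and Ccnb2 (-0.11, adjusted p = 0.137) were below Bl6 in CSS1 without overlap, and Foxm1 differed by -0.04 with overlap.

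**Figure D2:**
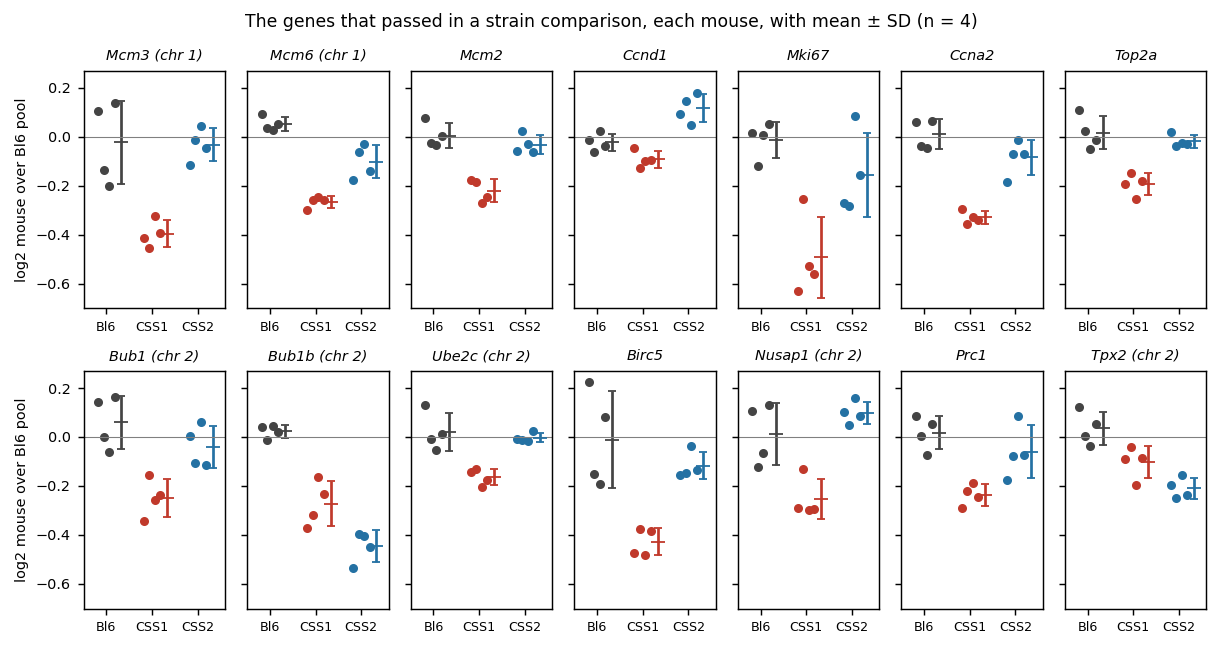
Each panel shows 1 of the 14 genes that passed in at least 1 strain comparison, with a point per mouse for the log2 ratio over the Bl6 pool and a bar for the mean ± SD (n = 4 mice per strain). The CSS1 points lie below the Bl6 points in all panels but those of Ccnd1, where they overlap, and the lowest points for Bub1b and Tpx2 are those of CSS2.

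The checkpoint group holds the kinases Bub1 and Ttk and the proteins Bub1b (BubR1) and Mad2l1, which hold anaphase until every kinetochore is attached. It also holds the kinetochore proteins Cenpa, Cenpe and Cenpf and, for the anaphase-promoting complex, the activator Cdc20 and the E2 enzyme Ube2c. In CSS1, 8 of its 9 genes were lower with a median of -0.10, and 3 fell, against 0.859% of all genes. All 3 lie on chromosome 2. Bub1 was 0.14, -0.0002, -0.06 and 0.16 in Bl6, -0.34, -0.16, -0.26 and -0.24 in CSS1, and 0.01, -0.11, 0.06 and -0.12 in CSS2. Bub1 fell by 0.31 ± 0.06 (SE) in CSS1 against Bl6 (adjusted p = 0.0318), without overlap with Bl6 or CSS2. That call held in 6 of 12 fits with a mouse left out and failed when Bl6 mouse 2, 5 or 11 was left out, and likewise for CSS1 mouse 3, 9 or 12. It also missed the threshold with the block of 3 consecutive mouse numbers (adjusted p = 0.0607).

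Bub1b was 0.04, -0.01, 0.05 and 0.02 in Bl6, -0.37, -0.32, -0.16 and -0.23 in CSS1, and -0.54, -0.40, -0.40 and -0.45 in CSS2. The 3 strains were fully separate, in the order CSS2, CSS1, Bl6 from the lowest. It fell by 0.47 ± 0.05 (SE) in CSS2, 1.38-fold lower than Bl6 (adjusted p = 0.000868), and by 0.30 ± 0.05 (SE) in CSS1 (adjusted p = 0.0126). The CSS2 call held with each of the 12 mice left out and under all 10 other settings. The CSS1 call was lost without Bl6 mouse 2 (adjusted p = 0.0549) and with median centring (adjusted p = 0.0985). CSS1 was 0.17 above CSS2 (adjusted p = 0.204), which did not pass.

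Ube2c was 0.13, -0.01, -0.05 and 0.01 in Bl6, -0.14, -0.13, -0.20 and -0.18 in CSS1, and -0.01, -0.01, -0.02 and 0.03 in CSS2. CSS1 lay below both other strains. At the brightest probe Ube2c fell by 0.18 ± 0.04 (SE) against Bl6 (adjusted p = 0.0454), a call that held only without Bl6 mouse 8 among the 12 fits that left out a mouse, and the other probe gave -0.30 (adjusted p = 0.0275).

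Cenpe, a kinetochore motor, and Cdc20 were below Bl6 in CSS1 without overlap, by -0.19 (adjusted p = 0.0833) and -0.10 (adjusted p = 0.443). Besides Bub1b, Mad2l1 was the gene with CSS2 below both other strains, at -0.13 against Bl6 (adjusted p = 0.28) for its brightest probe, while its further probes gave -0.03 and 0.03. Ttk and Cenpa differed by -0.09 and -0.01 in CSS1, with overlap. Cenpf, on chromosome 1 and close to background, was -0.06, 0.08, -0.01 and -0.004 in Bl6 and 0.09, 0.04, -0.07 and -0.04 in CSS1.

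The spindle group holds the Aurora kinases Aurka and Aurkb, Birc5 (survivin, a partner of Aurora B), the kinase Plk1 and the spindle proteins Tpx2 and Nusap1. The kinesins Kif11, Kif20a and Kif23 and the midzone protein Prc1 complete it. All 10 were lower in CSS1 with a median of -0.20. Of these, 8 were without overlap and 2 fell, against 4.14% and 0.859% of all genes. Birc5 was 0.23, -0.15, -0.19 and 0.08 in Bl6, -0.47, -0.38, -0.48 and -0.39 in CSS1, and -0.16, -0.15, -0.04 and -0.13 in CSS2. CSS1 was below every other mouse, and the Bl6 mice again fell into a high pair, 2 and 11, and a low pair, 5 and 8. Birc5 fell by 0.42 ± 0.08 (SE), 1.34-fold (adjusted p = 0.0271, a call that leaving out Bl6 mouse 2, Bl6 mouse 11, CSS1 mouse 3 or CSS1 mouse 9 ended). Its dimmer probes gave -0.13 and -0.06, neither past the threshold.

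Prc1, which bundles microtubules in the spindle midzone, was 0.08, 0.004, -0.07 and 0.05 in Bl6, -0.29, -0.22, -0.19 and -0.25 in CSS1, and -0.18, -0.08, 0.09 and -0.07 in CSS2. CSS1 did not overlap either strain, although its highest mouse was next to the lowest CSS2 mouse. Prc1 fell by 0.25 ± 0.05 (SE) against Bl6 (adjusted p = 0.044), but this call held in only 3 of the 12 fits that left out a mouse, those without Bl6 mouse 8 or CSS2 mouse 1 or 7, and it was lost with the block of mouse numbers (adjusted p = 0.0649).

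Tpx2, which activates Aurora A on the spindle, was 0.12, 0.01, -0.04 and 0.05 in Bl6, -0.09, -0.04, -0.20 and -0.09 in CSS1, and -0.20, -0.25, -0.16 and -0.24 in CSS2. CSS2 and CSS1 overlapped each other, and both lay below Bl6. It fell by 0.25 ± 0.04 (SE) in CSS2 (adjusted p = 0.0283) and was -0.14 in CSS1 (adjusted p = 0.201). The other Tpx2 probe differed by 0.04 in CSS2 (adjusted p = 0.906) and by -0.14 in CSS1, so the CSS2 call rests on 1 of 2 probes. The call was lost without Bl6 mouse 2, 5 or 11, CSS1 mouse 3 or CSS2 mouse 1, 4 or 10.

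Nusap1 was 0.10, -0.12, -0.06 and 0.13 in Bl6, -0.29, -0.13, -0.30 and -0.30 in CSS1, and 0.10, 0.05, 0.16 and 0.08 in CSS2. CSS1 lay below both other strains. The difference from Bl6 was -0.27 (adjusted p = 0.0614), while Nusap1 fell by 0.35 ± 0.06 (SE) in CSS1 against CSS2 (adjusted p = 0.0204; lost without CSS1 mouse 3, 9 or 12 or CSS2 mouse 1, 7 or 10). Aurka, also on chromosome 2, was 0.09, -0.08, -0.09 and 0.04 in Bl6, -0.20, -0.16, -0.14 and -0.20 in CSS1, and -0.08, -0.06, -0.10 and -0.07 in CSS2. It was -0.17 against Bl6 in CSS1 without overlap (adjusted p = 0.0865).

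Of the remaining spindle genes, Kif23 (-0.24, adjusted p = 0.0945), Kif20a (-0.17, adjusted p = 0.1) and Plk1 (-0.14, adjusted p = 0.169) were below Bl6 in CSS1 without overlap and without a call. A dimmer Kif23 probe gave -0.003. Aurkb was 0.14, -0.20, -0.24 and 0.22 in Bl6 and -0.32, -0.23, -0.17 and -0.28 in CSS1, so it overlapped, at -0.23 (adjusted p = 0.409). Kif11 differed by -0.07 in CSS1 at its brightest probe, with overlap, whereas its dimmer probe was -0.18 (adjusted p = 0.0124).

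**Figure D3:**
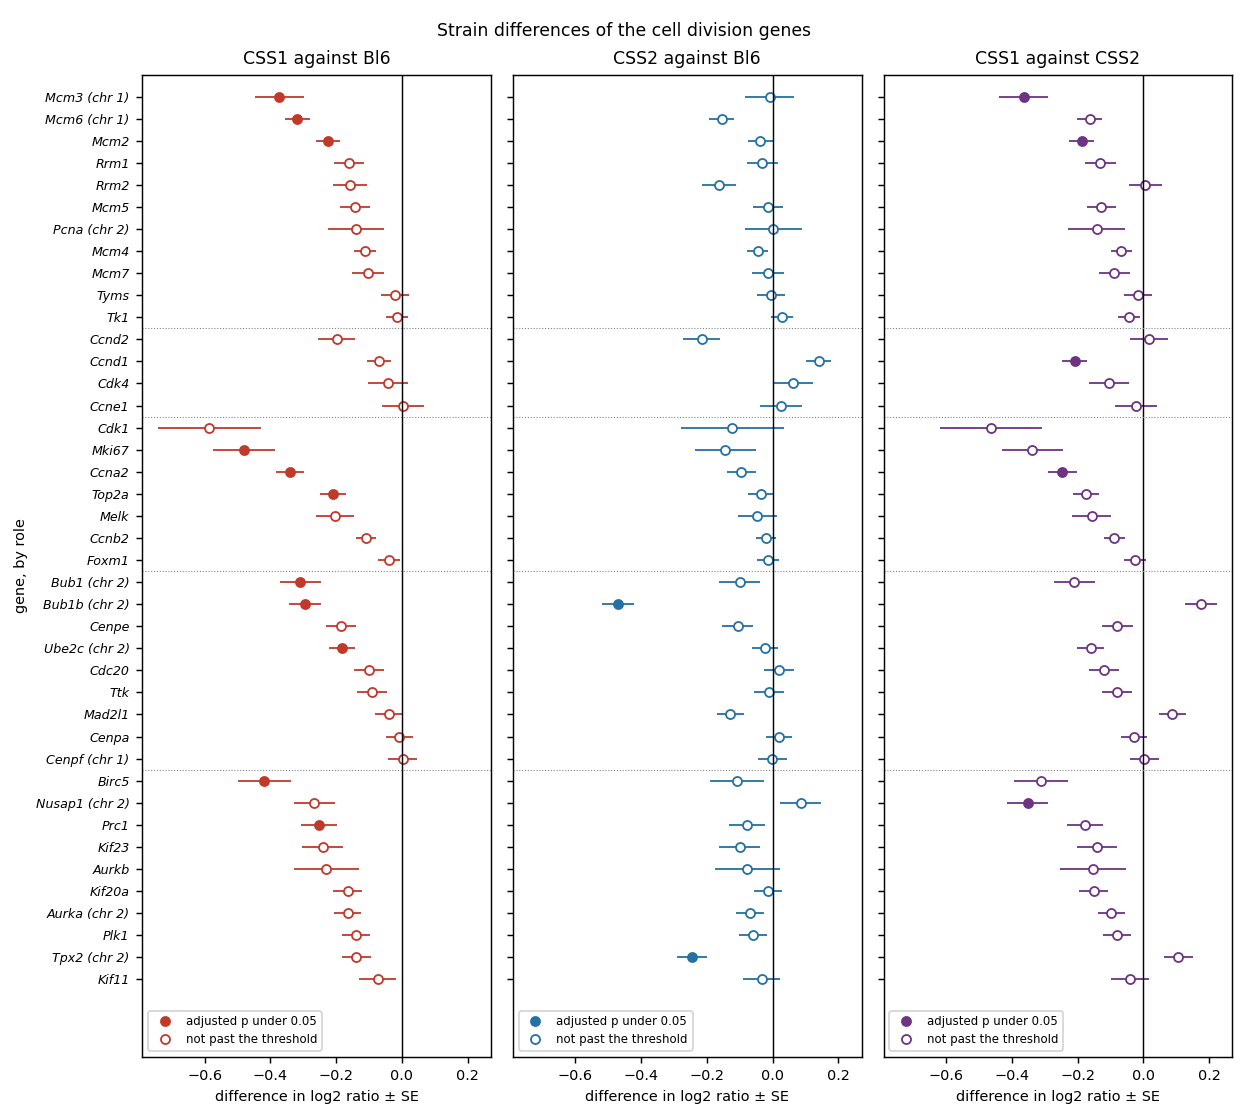
Points are limma's differences in log2 ratio between strains for the 41 genes, by role, with bars for ± 1 SE, and filled points passed an adjusted p under 0.05. In CSS1 against Bl6, 39 of 41 points lie left of 0 and 11 are filled. In CSS2 against Bl6 the filled points are Bub1b and Tpx2, and in CSS1 against CSS2, 5 are filled.

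In CSS2 the cell division genes leaned lower than in Bl6 by a small amount, and few passed. The calls, for Bub1b and Tpx2, are 2 of 41 genes, against 0.379% of all genes, and both lie on chromosome 2, where 1.86% of genes were called lower. The median difference was -0.04, beside 0.004 over all genes, and 33 of 41 (80.5%) were negative, against 47.5% of all genes. Off chromosomes 1 and 2 limma called none of 31, with 5 lower and 1 higher at an unadjusted p under 0.05. Over all 41 those counts were 8 (19.5%, against 4.44% of all genes) and 1 (against 5.39%). None of the 41 rose, against 0.661% of all genes. In 5 genes all CSS2 mice were below all Bl6 mice (Bub1b, Tpx2, Mcm6, Ccnd2 and Mad2l1), against 3.01% of all genes, and in 1, Ccnd1, all were above, against 4.16%. Intervals for single genes remained wide: Mki67, Birc5 and Cdk1 in CSS2 had 95% intervals of -0.35 to 0.06, -0.29 to 0.07 and -0.47 to 0.22.

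Set directly against CSS2, CSS1 was lower in 35 of 41 genes (85.4%, against 52.3% of all genes) with a median of -0.12, beside -0.003 over all genes. In limma 5 of 41 fell, against 0.596% of all genes: Ccna2, Ccnd1, Nusap1, Mcm2 and Mcm3. Mcm3 lies on chromosome 1, where 4.07% of genes were called lower, and Nusap1 on chromosome 2, where 2.02% were. None rose, against 0.374% of all genes, with 2 higher at an unadjusted p under 0.05 and 21 lower, where 3.87% and 4.63% of all genes were. In 18 genes all CSS1 mice were below all CSS2 mice, against 3.45% of all genes, and in 2, Bub1b and Mad2l1, all were above, against 2.62% of all genes. The comparisons of CSS1 and CSS2 with Bl6 use the same 4 Bl6 mice. The direct comparison shares the CSS1 mice with the first of them and the CSS2 mice with the second. Without CSS1 mouse 9, CSS1 mouse 12 or CSS2 mouse 10, none of the 41 passed limma's test in the direct comparison, with 20, 20 and 21 lower at an unadjusted p under 0.05.

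The Bl6 mice differed among themselves in these genes. In mouse 2, 33 of 41 genes (80.5%) were above the Bl6 mean, where 47.9% of all genes were, while in mice 5 and 8 only 9 each were. Mouse 11 lay between, with 23 of 41 above that mean (56.1%, against 51.6% of all genes). Each of the pairs 2 and 8, and 5 and 11, shares a dye orientation, so mice 2 and 11 had opposite dyes. The median SD within Bl6 was 0.068 for the cell division genes and 0.057 for all genes. In CSS1 these medians were 0.058 and 0.068, and in CSS2 0.056 and 0.064. The number of genes that fell in CSS1 against Bl6 depended on which mice entered, from 2 without Bl6 mouse 2 to 14 without Bl6 mouse 8. It was 7 (Bl6 mouse 5), 5 (Bl6 mouse 11), 4 (CSS1 mouse 3 or 9), 9 (CSS1 mouse 6) and 6 (CSS1 mouse 12) without those mice, and 9 or 10 without a CSS2 mouse. The median stayed between -0.19 and -0.13 in all these fits. Of the 11 calls, those of Ccna2 and Mki67 held with median centring in place of loess, and those of Ccna2, Mcm2, Mcm6 and Bub1b with scale normalization between arrays.

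Other cell cycle genes outside the set shifted less. Of 144 looked up, 142 were measured, and in CSS1 against Bl6 113 of 142 were negative (79.6%, against 51.3% of all genes) with a median of -0.05. In limma 4 fell (2.82%, against 0.859% of all genes): Pole and Pole2, subunits of the leading-strand polymerase (-0.22, adjusted p = 0.00453, and -0.15, adjusted p = 0.0211), the origin licensing factor Cdt1 (-0.30, adjusted p = 0.0148) and the spindle kinesin Kif15 (-0.32, adjusted p = 0.0122). Another 2 rose (1.41%, near the 1.17% of all genes), the spindle protein Spag5 (0.21, adjusted p = 0.0305) and Wee1, the kinase that restrains Cdk1 (0.25, adjusted p = 0.0383). By group, the medians were -0.14 for 21 spindle and kinesin genes, -0.08 for 26 kinetochore genes, -0.07 for 20 condensin, cohesion and mitotic exit genes, -0.06 for 18 origin genes, -0.05 for 13 other cyclins and kinases, -0.04 for 22 fork genes and -0.01 for 22 CDK inhibitor and E2F/RB genes.

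In CSS2 against Bl6 the median of the 142 was -0.02. Spag5 rose (0.31, adjusted p = 0.00452), which is 0.704% of the list, near the 0.661% of all genes. Limma called none lower, against 0.379% of all genes, with 3 lower at an unadjusted p under 0.05 (2.11%, against 4.44%). In CSS1 against CSS2, Kif15 (-0.27, adjusted p = 0.0318), Cdt1 (-0.27, adjusted p = 0.0341), Pole (-0.15, adjusted p = 0.0358) and the CDK inhibitor Cdkn1c (-0.22, adjusted p = 0.0382) fell. These are 2.82% of the 142, against 0.596% of all genes.

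Markers of several cell types moved with the strains. For 9 neural progenitor markers the per-mouse median ranged from -0.04 to 0.07 in Bl6, from -0.09 to -0.01 in CSS1 and from -0.04 to 0.03 in CSS2. Of these, only Fabp7, of radial glia and astrocytes, fell in CSS1 in limma (-0.91, adjusted p = 0.0305). That is 11.1% of the list, against 0.859% of all genes. The list was mixed, with 6 negative and 3 positive differences, the latter for Hopx (0.12), Eomes (0.10) and Nes (0.05), none past the threshold. For 8 immature neuron markers the ranges were -0.12 to 0.08, -0.25 to -0.13 and -0.09 to -0.01. Limma called none in CSS1 against Bl6, with 3 lower at an unadjusted p under 0.05 (37.5%, against 5.96% of all genes). For 9 genes of oligodendrocyte precursors and the wider oligodendrocyte lineage they were -0.07 to 0.01, 0.002 to 0.02 and 0.08 to 0.16. This list does not mark precursors alone. In limma, Olig1 (0.38, adjusted p = 0.00193) and Bcas1, on chromosome 2 (0.45, adjusted p = 0.0045), rose in CSS2, against 0.661% of all genes. This list was mixed too, with 7 positive and 2 negative differences in CSS2, the latter for Pdgfra (-0.03) and Lhfpl3 (-0.01). In CSS1, 6 were positive and 3 negative.

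Markers of myelinating oligodendrocytes were higher in both substitution strains, with medians of -0.29 to 0.24 in Bl6, 0.44 to 0.74 in CSS1 and 0.36 to 0.88 in CSS2. Of 9 such markers 5 rose in CSS1 and 4 in CSS2 in limma, against 1.17% and 0.661% of all genes. Among them was Mal, on chromosome 2 (1.30, adjusted p = 0.00241, and 1.22, adjusted p = 0.00356). All 9 differences were positive in CSS1 and 8 in CSS2, where Ermn was negative (-0.07). Astrocyte medians were -0.08 to 0.01, 0.11 to 0.23 and 0.01 to 0.16. Of 9 markers 2 were up in CSS1 and 1 in CSS2, against 1.17% and 0.661% of all genes. The astrocyte list was mixed in CSS1, with 7 positive and 2 negative differences, the latter for Aqp4 (-0.21) and Aldh1l1 (-0.004), neither past the threshold. In CSS2 all 9 were positive. Microglial medians were -0.07 to 0.06, 0.11 to 0.14 and -0.07 to 0.08. Of 8 microglial markers only Ctss passed in CSS1, as higher in limma (0.32, adjusted p = 0.0192), against 1.17% of all genes. All 8 differences were positive there. Endothelial and mural medians were -0.05 to 0.01, -0.06 to 0.02 and -0.02 to 0.04, and those of meninges and choroid plexus -0.04 to 0.07, -0.06 to 0.02 and -0.12 to -0.03. In CSS1 the pericyte gene Rgs5, on chromosome 1, fell (-1.24, adjusted p = 1.7e-06) and the endothelial transporter Slco1a4 rose (0.34, adjusted p = 0.0099). Each was 1 of 9 endothelial and mural markers, where 0.859% of all genes were called lower and 1.17% higher. On chromosome 1, 4.24% of genes were called lower. Hippocampal neuron medians were -0.06 to -0.01, -0.01 to 0.05 and -0.06 to 0.03. In both comparisons with Bl6, limma called no marker of hippocampal neurons or of meninges and choroid plexus. At an unadjusted p under 0.05, 1 of 10 neuron markers was lower and 1 higher in CSS1, against 5.96% and 6.88% of all genes. In CSS2, 2 neuron and 2 of 9 meningeal or choroid markers were lower at that threshold, against 4.44% of all genes. All measured markers of these lists were above background on all 12 arrays, as were 20083 of all 21643 genes. For Rgs5 in CSS1 and for Mal and Bcas1 in CSS2, a sequence difference under the probe and a difference in RNA cannot be told apart. The part of these markers in the cell division result was not tested.

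**Figure D4:**
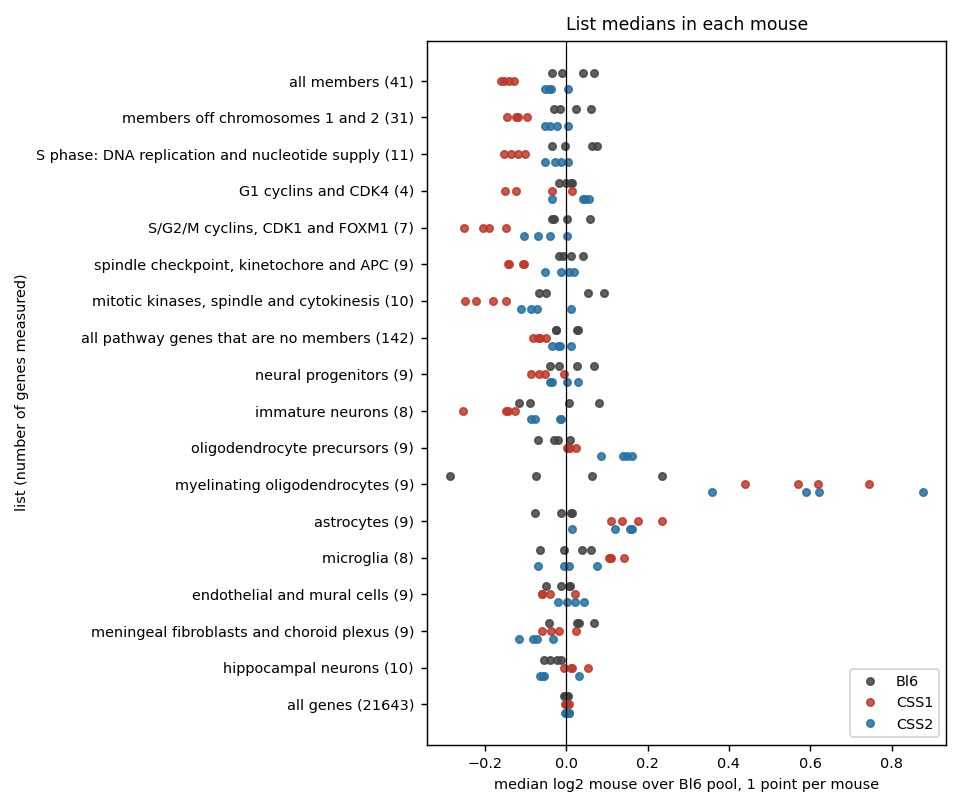
Each point is 1 mouse, placed by the median log2 ratio over the Bl6 pool across the genes of a list, with strains in 3 colours and the number of measured genes in brackets. The 4 CSS1 points of all 41 cell division genes, between -0.16 and -0.13, lie apart from both other strains, and the myelinating oligodendrocyte markers reach 0.74 in CSS1 and 0.88 in CSS2.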

How the data were processed

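RNA of 4 individual mice per strain was hybridised on 2-colour arrays against a Bl6 pool, and the design text calls these mice individuals. The deposited scanner files hold spot intensity per channel with local background, with no scanner named. Normalized log2 ratios by the authors stand in a deposited value table. Set against the scanner values, its columns run mouse over pool and are centred, with medians between -0.00502 and 0.00585, but how the authors normalized them is not stated.

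Here the intensity values were corrected with normexp (offset 50) and loess within each array in limma 3.58.1 under R 4.3.3, and every ratio was turned to mouse over pool. A probe entered when its mean log2 intensity passed 6.23, the 95th percentile of 1580 control spots, which left 39239 probes and dropped 190. Strain and dye orientation were fitted together on all 12 arrays, with Benjamini-Hochberg adjustment over all kept probes and a threshold of 0.05. A gene was read from its brightest probe. Intervals are 95% intervals from the same fit. The number of arrays limits the precision. Between arrays of the same dye orientation, correlations of the log2 ratios over probes ranged from 0.168 to 0.700. The script was tested on simulated data.

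Genes were named by rule: full values for members that passed in any comparison or lie on chromosome 1 or 2, up to 6 others by the size of their difference, and up to 3 genes per pathway list and comparison. The members and lists were chosen with earlier results of these data known. Alternatives tried were no background correction, median centring, scale normalization, no dye term, array weights, a block of 3 consecutive mouse numbers, fits of only the strains compared, no filter, the mean over probes, the authors' values and leaving out each mouse. Promoter sequences are those of RefSeq, build GRCm38.p6. No label names the build of the array, so no probe coordinates are printed.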

Additional observations from a re-analysis of the deposited data

Results flagged for a closer look

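Nusap1 in CSS1 mouse 6 stood apart from the other mice of its strain, at -0.132 where the others were -0.291, -0.298 and -0.296. Melk in Bl6 mouse 2 was 0.0780, where the other Bl6 mice were between 0.003 and 0.010. These were 2 of 72 sets of 4 mice examined, and chance alone gives about 5% of such sets.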

How the results depend on the processing

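No paired analysis was possible because no mouse number is shared between strains. A block of 3 consecutive mouse numbers was fitted instead and gave 9 lower genes in CSS1 against Bl6 (Bub1 and Prc1 lost), 2 in CSS2 and 4 in CSS1 against CSS2 (Mcm3 lost). The 11 genes lower in CSS1 than in Bl6 became 2 with median centring (48 of all genes), 4 with scale normalization (122, median -0.13), 3 without the dye term (62), 17 with array weights (442) and 6 with only the 2 strains (102). They were 2 to 14 with a mouse left out. The 2 genes lower in CSS2 became 1 without background correction, with median centring, scale normalization, no dye term, the authors' values or the mean over probes, and 1 to 3 with a mouse left out. The 5 genes lower in CSS1 than in CSS2 became 0 with median centring or scale normalization (12 and 17 at an unadjusted p under 0.05 in limma), 1 without the dye term, 3 with only the 2 strains, and 0 to 8 with a mouse left out. The median of that comparison lay between -0.12 and -0.10 with a mouse left out. The cause of these changes was not tested. Each of the 18 single-gene calls kept its direction in all 22 alternatives, but 82 of 242 such values for CSS1 against Bl6, 13 of 44 for CSS2 and 56 of 110 for CSS1 against CSS2 no longer passed. Over all genes, the split of CSS2 calls was 82 lower and 143 higher, 166 and 154 under the block, and 30 and 89 with median centring.

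Limits: 4 mice per strain leave most single-gene calls dependent on which mice enter. Differences are small, and probes of several genes disagree, among them Tk1, Kif11, Birc5, Tpx2, Cdk1, Kif23, Mad2l1 and Tyms. Cenpf is close to background. The tissue label, the donor of the substituted chromosomes and the authors' normalization could not be settled from the sources used here.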
